A study of Mus musculus with 14 samples.

Results

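Collagens are the structural proteins of the extracellular matrix, and the 40 collagen genes described here were measured on microarrays of mouse testis. They were taken as every gene whose name on the array starts with Col, a number, the letter a and a number, which gave 41 gene names of the 27962 on the array, carried by 82 probes of 41174. The member left over, Col4a3bp, carries the name of a collagen-binding protein. It encodes the ceramide transfer protein, now called Cert1, is no collagen and is kept out of all counts. Each gene is represented by its brightest probe over the 4 groups, and 28 of the 40 collagens had more than 1 probe.

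The series compared testes of mice with a disrupted Glis3 gene, named Glis3KO2, with testes of wild-type (WT) mice, all on the C57BL/6 strain and untreated. There were 3 Glis3KO2 and 3 WT samples at 4 weeks of age and 4 Glis3KO2 and 4 WT samples at 1 week. The older mice are 4 weeks old by their labels and 3 weeks old by the series' design text, and the labels' age is used here. Each sample was hybridised to its own single-colour Agilent array, and nothing in the labels says whether each RNA came from a separate animal, so p-values measure the spread between these samples. The Glis3KO2 allele, and the cells in which it is disrupted, are not described in the sources used here.

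A collagen molecule is 3 chains wound into a triple helix, and each Col gene encodes a chain. Fibrillar collagens build the fibres of connective tissue, type IV collagen builds the sheet of basement membranes, and the other types sit on fibre surfaces, form filaments or networks, or span the cell membrane. In the testis the seminiferous tubule rests on a basement membrane laid down by Sertoli cells and peritubular myoid cells, outside which lie the fibres of the tubule wall and the interstitium. Glis3 encodes a zinc finger transcription factor of the Krüppel-like family.

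The helix needs a glycine as the first of every 3 residues, and glycine codons start with GG, so a stretch of helix coding sequence repeats GG every 9 bases. Of the 41174 probes on the array, 3 carried GG at 6 or more consecutive 9-base steps, and all 3 were collagen probes. They are shown because they are the signature of the family in the measured sequence, with the repeated GG in capitals, 5′ to 3′ on the gene's strand, and with mm7 coordinates from the array files. Each spans more than its 60 bases in the genome, so it crosses at least 1 exon junction.
Col11a2 second probe, chr17:32131401-32131567, plus strand: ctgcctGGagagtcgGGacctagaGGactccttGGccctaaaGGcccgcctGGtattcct
Col5a1 second probe, chr2:27994034-27996457, plus strand: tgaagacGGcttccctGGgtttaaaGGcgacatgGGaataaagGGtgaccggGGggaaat
Col5a3 second probe, chr9:20655471-20656200, minus strand: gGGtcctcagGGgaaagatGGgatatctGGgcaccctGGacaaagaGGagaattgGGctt

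Values are log2 of the scanner's processed signal minus the 75th percentile of the array, so a level of 0 is the signal that 75% of gene probes lie below. Levels of different probes cannot be set against each other, and only differences between arrays are compared. Between 74.3% and 86.6% of spots were well above background on each array, and no collagen spot was saturated. A gene entered a comparison when 3 or more arrays of 1 of its groups had its probe well above background, and it counted as changed when the limma p, adjusted by Benjamini-Hochberg over all genes tested, was under 0.05. Glis3 itself was at background on 4 of 4 Glis3KO2 arrays and well above it on 4 of 4 WT arrays at 1 week, at least 4.25-fold lower in Glis3KO2 (log2 difference -3.17, SE 0.379, limma adjusted p = 0.00581). At 4 weeks its probe was at background on all 6 arrays and does not check the labels. All 10 Sertoli cell markers listed were well above background on every array. At 1 week Glis3KO2 replicate 3 and WT replicate 1 lay low for most collagens, and results of that age are given with and without them.

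At 4 weeks 28 of the 39 collagens tested changed, 17 higher and 11 lower in Glis3KO2. All 6 chains of type IV, the basement membrane collagen, were higher, by 0.66 to 1.69 on the log2 scale. Of the 9 fibril-associated collagens, which sit on the surface of fibres, 6 were lower and 2 higher. The membrane-spanning Col13a1 had the largest rise, 9.58-fold, and Col15a1 of the basement membrane zone the largest fall, 6.90-fold. Over all genes 35.1% of 21335 tested were higher and 34.1% lower at 4 weeks, so the 43.6% of collagens higher and 28.2% lower are to be read against a background in which most genes changed. The median log2 difference was 0.24 over the collagens and 0.03 over all genes. It was 0.40 without WT replicate 1. Differences also varied with brightness. With all genes split into 4 equal bins from dim to bright, the median was -0.27, 0.055, 0.32 and 0.18 over all genes and -1.31, 0.24, 0.71 and 0.22 over the 4, 9, 14 and 12 collagens in them, and the part of brightness in the collagen differences was not tested.

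**Figure D1:**
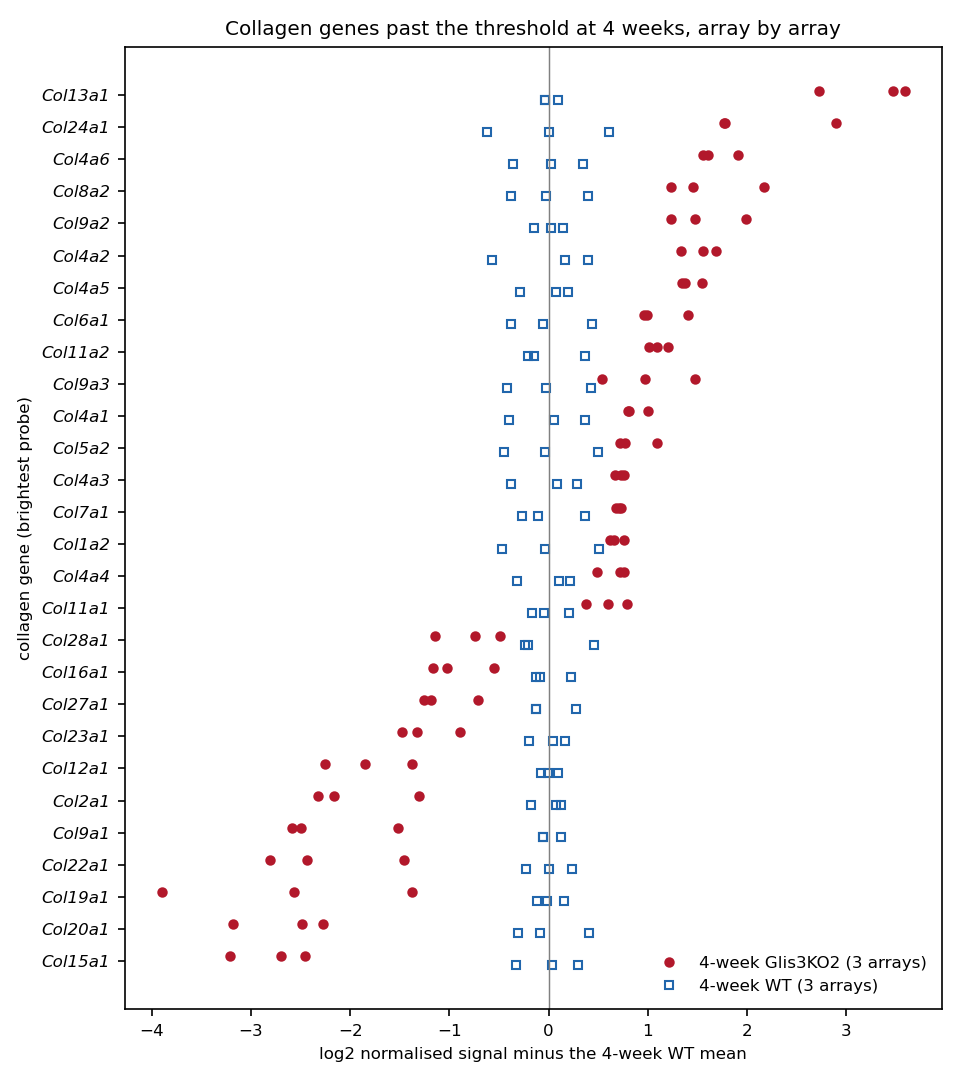
Log2 normalised signal of the 28 collagens that changed at 4 weeks, on each of 3 Glis3KO2 arrays (filled red circles) and 3 WT arrays (open blue squares), each minus that gene's 4-week WT mean. Genes run from Col13a1 at the top (log2 difference 3.26) to Col15a1 at the bottom (-2.79). The arrays of the groups do not overlap for any of them, and the share of all genes without overlap was not counted.

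The type IV chains form 3 pairs of adjacent genes, each with a shared region between the starts. Col4a1 and Col4a2 encode the chains found in nearly all basement membranes, and the other 4 encode chains of more restricted membranes. Col4a2 measured 1.72, 1.85 and 1.49 on the Glis3KO2 arrays, against 0.56, -0.41 and 0.32 on the WT arrays at 4 weeks. It was 2.88-fold higher (log2 difference 1.53, SE 0.271, limma adjusted p = 0.00251). Col4a1 was 1.83-fold higher (0.87, SE 0.218, limma adjusted p = 0.0104).

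Col4a6 measured 0.32, 0.62 and 0.27 on the 4-week Glis3KO2 arrays and -0.94, -1.65 and -1.27 on the WT arrays. It was 3.23-fold higher, with a log2 difference of 1.69 (SE 0.219, limma adjusted p = 0.000982). Its neighbour Col4a5 measured -2.75, -2.57 and -2.78 in Glis3KO2 and -3.92, -4.41 and -4.05 in WT, a rise of 2.68-fold (log2 1.42, SE 0.177, limma adjusted p = 0.000884). All 3 Glis3KO2 arrays lay above all 3 WT arrays for each of the 6 chains. The groups did not overlap for 31 of the 39 collagens tested at 4 weeks, some of them not past the threshold. How many of all genes had no overlap was not counted at either age. Col4a3 rose by 0.72 (SE 0.198, limma adjusted p = 0.0148) and Col4a4 by 0.66 (SE 0.190, limma adjusted p = 0.0187). The Col4a4 call was lost without WT replicate 2 (0.49, limma adjusted p = 0.0625) and without Glis3KO2 replicate 2 (0.62, limma adjusted p = 0.0572). Second probes of Col4a1 (1.43), Col4a2 (1.62) and Col4a3 (0.71) gave rises past the threshold as well. The other 2 probes of Col4a6 gave 1.61 and 0.43 and passed too, and the second probe of Col4a4 gave 0.37 and did not pass.

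The regions before the starts of Col4a5 and Col4a6 are shown because these adjacent genes run in opposite directions and both rose at 4 weeks. They come from the RefSeq table of bases before gene starts on GRCm38.p6, 5′ to 3′ on the gene's strand, and end before the first start that the RefSeq gene table gives, which leaves off 49 of 250 bases for Col4a5 and 19 for Col4a6. Capitals mark matches, on either strand, to 4 motifs, namely the GC box core GGGCGG, the CCAAT box, the TATAAA box and the core of the site bound by Glis proteins, TGGGGGGT. The only match in these stretches was 1 CCAAT of Col4a5. In the whole windows of 250 bases both genes also have GGGCGG, in matches that reach into the bases left off here.
Col4a5, chrX:141475169-141475369, plus strand: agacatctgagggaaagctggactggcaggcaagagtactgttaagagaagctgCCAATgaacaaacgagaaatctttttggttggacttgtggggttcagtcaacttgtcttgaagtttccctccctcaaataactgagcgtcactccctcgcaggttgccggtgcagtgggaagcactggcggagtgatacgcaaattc
Col4a6, chrX:141474096-141474326, minus strand: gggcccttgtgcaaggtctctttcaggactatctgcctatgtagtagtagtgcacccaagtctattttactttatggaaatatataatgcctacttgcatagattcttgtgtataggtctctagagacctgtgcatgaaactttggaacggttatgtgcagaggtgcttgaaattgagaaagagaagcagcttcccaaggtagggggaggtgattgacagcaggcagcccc

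A whole window of 250 bases was at hand for 32 of the 40 collagens, and for 20 of them it ran past the first start in the gene table. A collagen was counted when any of its windows held the motif, while the share over all genes is per window. A gene with more windows has more chances of a match, so the 2 kinds of share are not alike. On either strand GGGCGG was in 18 of the 32 collagens (56.2%), against 32.7% of all 32851 windows, and CCAAT in 12 (37.5%), against 33.8%. TATAAA was in 5 (15.6%), against 12.4%, and TGGGGGGT in 1, that of Col5a1 (3.12%), against 1.36%. Col5a1 was not among the genes that changed at 4 weeks (0.13, SE 0.156, limma adjusted p = 0.467). These are counts of letters in fixed windows and say nothing of whether a factor binds there.

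The collagens of the basement membrane zone did not share a direction. Col15a1, a proteoglycan that links the basement membrane to fibres beneath it, measured -1.27, -2.02 and -1.51 on the 4-week Glis3KO2 arrays, against 0.86, 1.49 and 1.22 on the WT arrays. All Glis3KO2 arrays lay below all WT arrays, with a log2 difference of -2.79 (SE 0.254, limma adjusted p = 0.000558). This rests on the brightest probe alone. The second Col15a1 probe, 170 bases away, measured -7.96, -7.33 and -6.54 in Glis3KO2 and -6.73, -7.13 and -6.78 in WT. It was well above background on 1 Glis3KO2 array and 0 WT arrays and was not tested at 4 weeks. Col7a1, the collagen of anchoring fibrils, was higher by 0.71 (SE 0.195, limma adjusted p = 0.0154), a call lost without WT replicate 1 (0.65, limma adjusted p = 0.0624) or WT replicate 3 (0.57, limma adjusted p = 0.067). Col18a1, the parent of endostatin, had a log2 difference of 0.30 (SE 0.162, limma adjusted p = 0.136) and did not pass.

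Among the 11 fibrillar collagens 5 were higher and 2 lower at 4 weeks. Col1a1 and Col3a1, chains of the main fibre collagens, were among the 4 that did not pass, while Col1a2, the other chain of type I, was among the higher genes. Col1a1 of type I collagen measured 3.01, 3.20 and 3.76 in Glis3KO2 and 3.81, 2.69 and 3.16 in WT (log2 difference 0.10, 95% interval -0.69 to 0.89). Col3a1 of type III collagen had a difference of -0.00053 (95% interval -0.74 to 0.74). The arrays of the groups overlapped for both, and neither interval shows that the level was the same. The remaining 2 were Col5a1, given above, and Col5a3 (-0.30, SE 0.312), chains of the type V collagen found inside type I fibres.

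Col24a1, a fibrillar collagen known from developing bone, rose most in this class. It measured -2.06, -3.19 and -3.18 on the Glis3KO2 arrays, against -4.96, -4.35 and -5.58 on the WT arrays, and was 4.45-fold higher (log2 2.15, SE 0.417, limma adjusted p = 0.00348). Col11a2 (1.09, second probe -0.26), Col5a2 (0.86), Col1a2 (0.68) and Col11a1 (0.60) made up the rest of the higher genes. Several of these calls were lost when 1 array was left out. That of Col1a2 was lost in 10 of 18 alternative analyses, among them those without WT replicate 2 (0.45) or 3 (0.66) and those without Glis3KO2 replicate 1 (0.71), 2 (0.69) or 3 (0.64), where the limma adjusted p was 0.083 to 0.134. Col5a2 was lost without WT replicate 2 (0.63) or 3 (0.83) or Glis3KO2 replicate 3 (0.74). Col11a1 was lost without WT replicate 2 (0.51) or 3 (0.57) or Glis3KO2 replicate 2 (0.59).

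Col2a1, the main collagen of cartilage, was lower. It measured -1.47, -1.63 and -0.62 in Glis3KO2 and 0.76, 0.51 and 0.81 in WT at 4 weeks, a log2 difference of -1.93 (SE 0.283, limma adjusted p = 0.00136). Col27a1, also known from cartilage, was lower by a log2 difference of -1.06 (SE 0.211, limma adjusted p = 0.00391), with its other 2 probes at -1.54 and -1.39. Cartilage itself is not a part of the testis. Of 6 cartilage markers Matn1, Matn3 and Hapln1 were at background on all 4-week arrays, and the other 3 were well above it on every one. Of these 3, the cartilage markers tested at 4 weeks, 1 was higher and 1 lower, with log2 differences from -2.34 to 2.61.

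The 3 chains of type VI collagen, which forms beaded filaments around cells, gave a rise in Col6a1 and no call for the brightest probes of the other two. Col6a1 measured 1.05, 0.64 and 0.61 on the Glis3KO2 arrays, against 0.091, -0.73 and -0.41 on the WT arrays (log2 1.11, SE 0.248, limma adjusted p = 0.00622). Col6a2 had 0.24 (SE 0.281), though its second probe passed as higher (0.55, SE 0.207, limma adjusted p over all probes = 0.0477), and Col6a3 -0.44 (SE 0.232). Whether the chains differ from each other was not tested.

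The fibril-associated collagens were the class with the most falls, with a median log2 difference of -1.83 over its 9 genes. Col20a1 measured -1.11, -1.80 and -0.89 in 4-week Glis3KO2 and 1.07, 1.79 and 1.29 in WT, and was 6.28-fold lower (log2 -2.65, SE 0.296, limma adjusted p = 0.000701). Col22a1, a collagen of tissue junctions such as that of muscle and tendon, measured 3.37, 3.00 and 4.35 in Glis3KO2 and 5.58, 6.05 and 5.81 in WT (-2.24, SE 0.351, limma adjusted p = 0.00168). Its second probe did not share this difference (0.17), as described below. Col12a1, which coats type I fibres, measured -6.06, -6.46 and -5.59 in Glis3KO2 and -4.29, -4.22 and -4.12 in WT (-1.83, SE 0.234, limma adjusted p = 0.000957). For these 3 genes every Glis3KO2 array lay below every WT array.

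Col19a1, a collagen of basement membrane zones, was well above background on 1 of 3 Glis3KO2 arrays and 3 of 3 WT arrays at 4 weeks. It measured -8.76, -7.43 and -6.24 in Glis3KO2 and -4.88, -4.71 and -4.98 in WT (-2.62, SE 0.580, limma adjusted p = 0.00605), and the call was lost with another background correction (-0.51, limma adjusted p = 0.081). Another Col19a1 probe, 1697 bases away, was well above background on 2 of 3 arrays of each group and was not tested. It did not share the fall, with -4.59, -7.98 and -6.67 in Glis3KO2 and -6.56, -6.16 and -6.22 in WT. Col16a1 was lower by its brightest probe, with a log2 difference of -0.92 (SE 0.211, limma adjusted p = 0.00709). Its second probe was at background on all 3 WT arrays and well above it on 2 of 3 Glis3KO2 arrays. It was at least 1.16-fold higher, a bound close to background, and was not tested at 4 weeks. Col14a1, which coats type I fibres like Col12a1, had -0.07 (SE 0.192) and did not pass.

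The 3 chains of type IX collagen, which together make 1 molecule on the surface of cartilage fibres, did not move together. Col9a1 measured -4.99, -5.08 and -4.01 in 4-week Glis3KO2 and -2.55, -2.37 and -2.55 in WT, a log2 difference of -2.20 (SE 0.297, limma adjusted p = 0.00109). Col9a2 measured -0.97, -1.73 and -1.48 in Glis3KO2 and -2.94, -2.82 and -3.11 in WT, a difference of 1.56 (SE 0.225, limma adjusted p = 0.0013). Col9a3 went the way of Col9a2, with a difference of 1.00 (SE 0.310, limma adjusted p = 0.024). Its call was lost without WT replicate 1 (0.80) or 3 (0.99) and without Glis3KO2 replicate 1 (0.76) or 2 (1.02).

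Of the 4 membrane-spanning collagens 1 was higher and 1 lower. Col13a1, which sits at cell adhesion sites and the neuromuscular junction, measured 0.35, 0.23 and -0.52 on the 4-week Glis3KO2 arrays. On the WT arrays it measured -3.15, -3.28 and -3.28, so the groups lay far apart. Col13a1 differed by 3.26 on the log2 scale (SE 0.246, limma adjusted p = 0.000494). Its second probe lies 28939 bases away, spans 370 bases of the genome and so crosses an intron. It measured -3.32, -3.39 and -4.08 on the Glis3KO2 arrays, all well above background, and -7.47, -6.04 and -7.27 on the WT arrays, of which 1 was well above background, a log2 difference of 3.33 (SE 0.411) with 2 of the WT values at background. Its sequence is shown because it comes from exon sequence on either side of a junction.
Col13a1 second probe, chr10:61385926-61386295 on mm7, minus strand: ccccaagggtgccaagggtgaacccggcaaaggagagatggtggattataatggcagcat

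Col23a1, the other membrane-spanning collagen that changed, measured -3.55, -3.99 and -4.14 in 4-week Glis3KO2 and -2.86, -2.62 and -2.50 in WT (-1.23, SE 0.203, limma adjusted p = 0.00197). Its direction depended on the probe, as described below. Col17a1 of hemidesmosomes had a log2 difference of 0.24 (SE 0.164) and Col25a1 0.66 (SE 0.309, limma adjusted p = 0.0979), and neither passed. Of the short-chain collagens, which form networks around vessels and in the cornea, Col8a2 measured -0.43, -1.15 and -1.37 in Glis3KO2 and -2.20, -2.98 and -2.63 in WT (1.62, SE 0.306, limma adjusted p = 0.00317). Col8a1 had -0.37 (SE 0.168, limma adjusted p = 0.0855). Col10a1 was at background on all 6 arrays at 4 weeks and was not tested.

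Col28a1, a collagen outside these classes, was well above background on 2 of 3 Glis3KO2 and 3 of 3 WT arrays. It measured -6.73, -6.32 and -6.07 in Glis3KO2 and -5.82, -5.12 and -5.79 in WT (-0.79, SE 0.264, limma adjusted p = 0.0317). The call was lost in 6 of 17 alternatives, among them another background correction, where the difference was -0.0018, and those without WT replicate 2 (-0.56) or Glis3KO2 replicate 1 (-0.61) or 2 (-0.82).

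**Figure D2:**
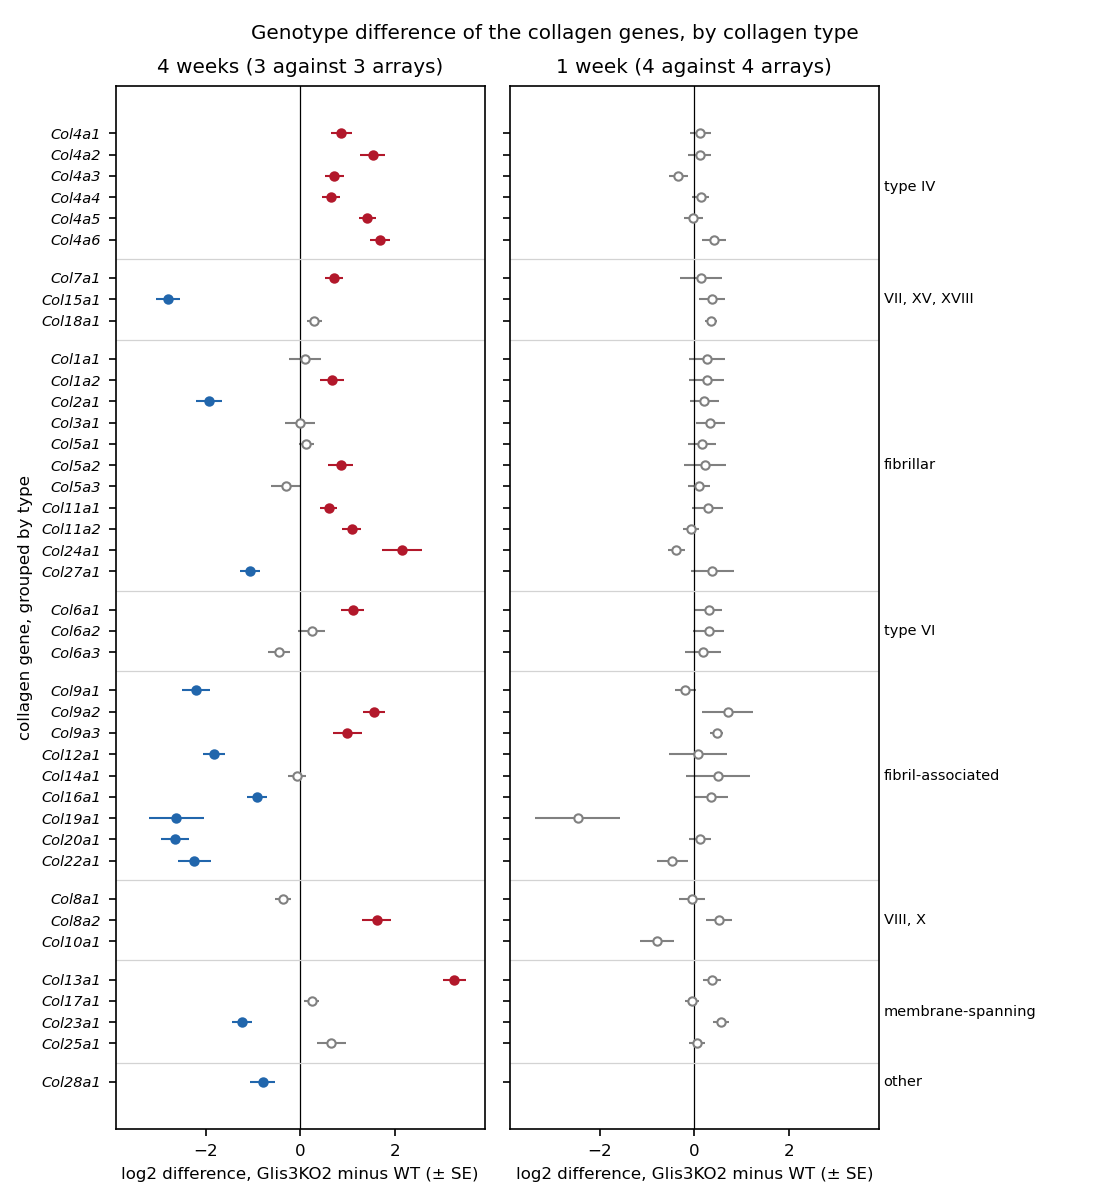
Log2 difference, Glis3KO2 minus WT, with its standard error for each collagen, grouped by type, at 4 weeks (left) and at 1 week (right). Filled red points passed the threshold as higher, filled blue points as lower and open grey points did not pass, and filled points are on the 4-week side alone, where all 6 type IV chains lie right of 0.

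In the genome the 40 collagens lie on 14 chromosomes, with 6 pairs of neighbours that have no other protein-coding gene annotated between them. In 4 of these pairs both genes changed in the same direction at 4 weeks, beside 35.1% of all genes higher and 34.1% lower. The share of such pairs among all neighbouring genes was not counted, so the 4 pairs have no background to be read against. Col4a1 with Col4a2, Col4a3 with Col4a4 and Col4a5 with Col4a6 were higher, and Col9a1 with Col19a1 lower. In the pairs of Col3a1 with Col5a2 and of Col6a2 with Col6a1 only the second gene passed.

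At 1 week none of the 39 collagens tested passed the threshold by its brightest probe. An unadjusted limma p under 0.05 was found for 4 of them and for 8188 of the 22678 genes tested. Over all genes 3.9% (885 genes) were higher and 6.14% (1392) lower at that age, and these counts moved when 1 array was left out. They were 108 and 455 without Glis3KO2 replicate 1 and 150 and 694 without replicate 4, 59 and 220, 62 and 315, 57 and 257 without WT replicate 1, 2 or 3, and 943 and 2592 without WT replicate 4. With slide as a block they were 64 and 438. The collagens had a median log2 difference of 0.18 and all genes of -0.07. Above 0 were 29 of the 39 collagens and 10288 of the 22678 genes tested. Col9a3 came nearest, with -0.90, -0.94, -0.72 and -1.07 on the Glis3KO2 arrays and -1.52, -1.42, -1.13 and -1.46 on the WT arrays (0.47, SE 0.131, limma adjusted p = 0.0561). Col23a1 followed with 0.57 (SE 0.170, limma adjusted p = 0.0636). The groups did not overlap for these 2 genes. Under 6 alternatives named in the closing part, Col9a3, Col23a1 or both passed as higher.

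The brightest probes of Col19a1 and Col10a1 were at background on 4 of 4 Glis3KO2 arrays at 1 week and above it on 3 of 4 WT arrays. Col19a1 measured -9.09, -9.49, -8.04 and -9.06 in Glis3KO2, against -5.84, -4.48, -6.25 and -9.23 in WT. WT replicate 4 was at background too, so the groups overlapped, and the difference, at least 1.42-fold lower, did not pass (limma adjusted p = 0.0966). Col10a1, the collagen of growth plate cartilage, measured -7.49, -7.38, -7.01 and -8.29 in Glis3KO2 and -6.53, -6.57, -6.30 and -7.62 in WT, at least 1.15-fold lower without passing (limma adjusted p = 0.148). Without WT replicate 4 both passed as lower, Col19a1 at least 2.69-fold (limma adjusted p = 0.00844) and Col10a1 at least 1.4-fold (limma adjusted p = 0.0474). On WT replicate 4, 76.7% of spots were well above background, against 86.6%, 82.6% and 86.3% on WT replicates 1, 2 and 3. The 4 Glis3KO2 arrays had 76.5%, 78.5%, 74.3% and 74.4%, so leaving out WT replicate 4 removed the WT array nearest to them. The part of this difference in detection in both calls was not tested. Col28a1 was at background on all 8 arrays and was not tested.

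At 1 week 1 array of each genotype stood apart. Glis3KO2 replicate 3 and WT replicate 1 lay low for nearly all of the 37 collagens above background on at least 1 array of each genotype. Their median distance from the gene's median over its group was -0.76 for Glis3KO2 replicate 3 and -0.66 for WT replicate 1, with 35 of 37 genes below it on each. On the other 6 arrays this median was between -0.04 and 0.18. For Col1a1 the 4 Glis3KO2 arrays measured 6.68, 6.42, 5.52 and 6.61 and the 4 WT arrays 5.04, 6.30, 6.50 and 6.34. The low arrays share a slide with 2 others that were not low. The fibroblast and stromal markers averaged 1.33 on Glis3KO2 replicate 3, within the 1.32 to 1.64 of its group, and 0.57 on WT replicate 1, below the 1.15 to 1.27 of the other WT arrays. The spermatocyte and spermatid markers were higher on both low arrays, at -3.94 on Glis3KO2 replicate 3 against -5.46 to -4.76 on the other Glis3KO2 arrays, and at -3.22 on WT replicate 1 against -3.93 to -3.69 on the other WT arrays. The part of either list in the collagen levels was not tested.

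**Figure D3:**
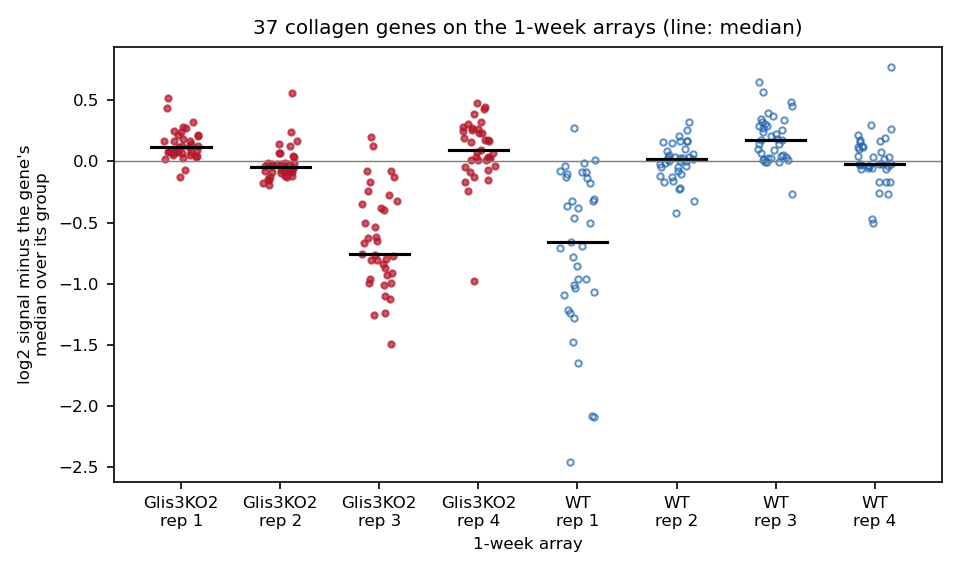
Each point is 1 of 37 collagens on a 1-week array, given as its log2 signal minus the gene's median over the 4 arrays of its group (Glis3KO2 filled red, WT open blue), and the black line is the median of the array. Glis3KO2 replicate 3 (-0.76) and WT replicate 1 (-0.66) lie low and the other 6 arrays near 0.

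The collagen median at 1 week moved with these arrays. It was 0.43 without Glis3KO2 replicate 3, -0.019 without WT replicate 1 and 0.20 without both, an alternative chosen after seeing the data. No collagen passed in any of these 3 analyses. Glis3KO2 replicate 4 was the only array of the series on its slide, and was scanned on another day than the other 1-week arrays. With slide as a block that array adds nothing to the genotype difference. The median was then 0.16, again with no collagen past the threshold. On slide 1 alone, with 2 Glis3KO2 and 2 WT arrays, it was 0.18, and on slide 2 alone, with 1 Glis3KO2 and 2 WT arrays, it was 0.16. No gene of the array passed on either slide alone, so these give medians and no test. Genotype differences at 1 week also moved with brightness. In 4 bins from dim to bright, as at 4 weeks, the median over all genes was -0.59, -0.19, 0.05 and 0.22, and over the 3, 10, 14 and 12 collagens in those bins it was -0.79, 0.02, 0.34 and 0.22. The part of brightness in the collagen median was not tested. With the arrays scaled to their medians in place of their 75th percentiles, the median of all genes was 0.19 and that of the collagens 0.44, while their distance stayed at 0.25.

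Between the ages the genotype differences themselves differed for 14 collagens, by the test of the 4-week difference minus the 1-week difference over all 14 arrays. This quantity was positive past the threshold for 7 and negative for 7, against 29.3% and 21.6% of the 23762 genes tested. The positive ones were Col13a1 (2.89, SE 0.327, limma adjusted p = 5.4e-05), Col24a1 (2.53), Col4a5 (1.44), Col4a2 (1.42), Col4a6 (1.28), Col11a2 (1.17) and Col4a3 (1.06). The negative ones were Col15a1 (-3.16, SE 0.405, limma adjusted p = 0.0001), Col20a1 (-2.77), Col2a1 (-2.14), Col9a1 (-2.01), Col23a1 (-1.80), Col22a1 (-1.77) and Col16a1 (-1.27). Leaving out 1 array lost the Col16a1 call in 10 of 14 cases, every one but 1-week WT replicates 3 and 4, 1-week Glis3KO2 replicate 3 and 4-week Glis3KO2 replicate 3, with -1.34 to -0.97. With median scaling the calls of Col4a3 (0.72, limma adjusted p = 0.0595) and Col4a6 (0.94, limma adjusted p = 0.0735) were lost. Of the type IV chains Col4a1 (0.74, SE 0.333) and Col4a4 (0.52, SE 0.263) did not pass. With median scaling the splits were 5 against 9 for the collagens and 4750 against 6535 for all genes, where the main scaling gave 6974 against 5135. The median over the collagens was 0.06, and 0.24 over all genes.

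In WT testes 27 of the 40 collagens were lower at 4 weeks than at 1 week, 5 were higher and 8 did not pass. All 6 type IV chains, all 3 type VI chains, 8 of 11 fibrillar and all 4 membrane-spanning collagens were lower. Over all genes 31.3% were higher and 49.7% lower between these ages, so a fall was the more common change, and the median was -0.51 over all genes against -2.09 over the collagens. Falls of the common chains were large. Col4a2 measured 0.56, -0.41 and 0.32 at 4 weeks and 3.24, 3.71, 3.67 and 3.54 at 1 week (-3.38, SE 0.245, limma adjusted p = 1.09e-05). Col1a1 fell by 2.82 (SE 0.421), Col3a1 by 2.52 (SE 0.376) and Col5a3 by 3.78 (SE 0.273). Col13a1 had the largest fall, 4.11, with -3.15, -3.28 and -3.28 at 4 weeks and 0.44, 1.22, 0.95 and 0.85 at 1 week. Col10a1 passed as lower with its probe at background on all 3 arrays at 4 weeks, where no fold can be given, and lost the call without 4-week WT replicate 1 or 2 or 1-week WT replicate 1, 2 or 3 (limma adjusted p 0.05 to 0.116). The smaller falls of Col14a1 (-2.16), Col25a1 (-0.52) and Col7a1 (-1.11) also lost their call without certain arrays. The lowest and highest values then were -2.15 and -1.85 for Col14a1 (without WT replicate 2 or 3 of either age). They were -0.53 and -0.43 for Col25a1 (without 4-week WT replicate 2 or 3 or 1-week WT replicate 1, 2 or 3) and -1.06 and -0.94 for Col7a1 (without 4-week WT replicate 1 or 3 or 1-week WT replicate 2, 3 or 4). The ages lie on different slides, so age and slide cannot be told apart.

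The 5 collagens that were higher at 4 weeks in WT were Col22a1, Col20a1, Col28a1, Col15a1 and Col9a1. Col22a1 measured 5.58, 6.05 and 5.81 at 4 weeks and 0.06, -0.63, -0.48 and 0.09 at 1 week, a rise of 66.4-fold (6.05, SE 0.223, limma adjusted p = 4.64e-07). Col20a1 measured 1.07, 1.79 and 1.29 at 4 weeks and -3.76, -3.71, -3.13 and -3.45 at 1 week (4.90, SE 0.222). Col28a1 was at least 3.13-fold higher, since its probe was at background at 1 week. Col15a1 rose by 1.92 (SE 0.227) and Col9a1 by 1.57 (SE 0.240). Each of these 5 was lower in Glis3KO2 than in WT at 4 weeks, by -2.24, -2.65, -0.79, -2.79 and -2.20 in the order named. The 2 comparisons share the 4-week WT arrays, so values of one carry into the other.

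**Figure D4:**
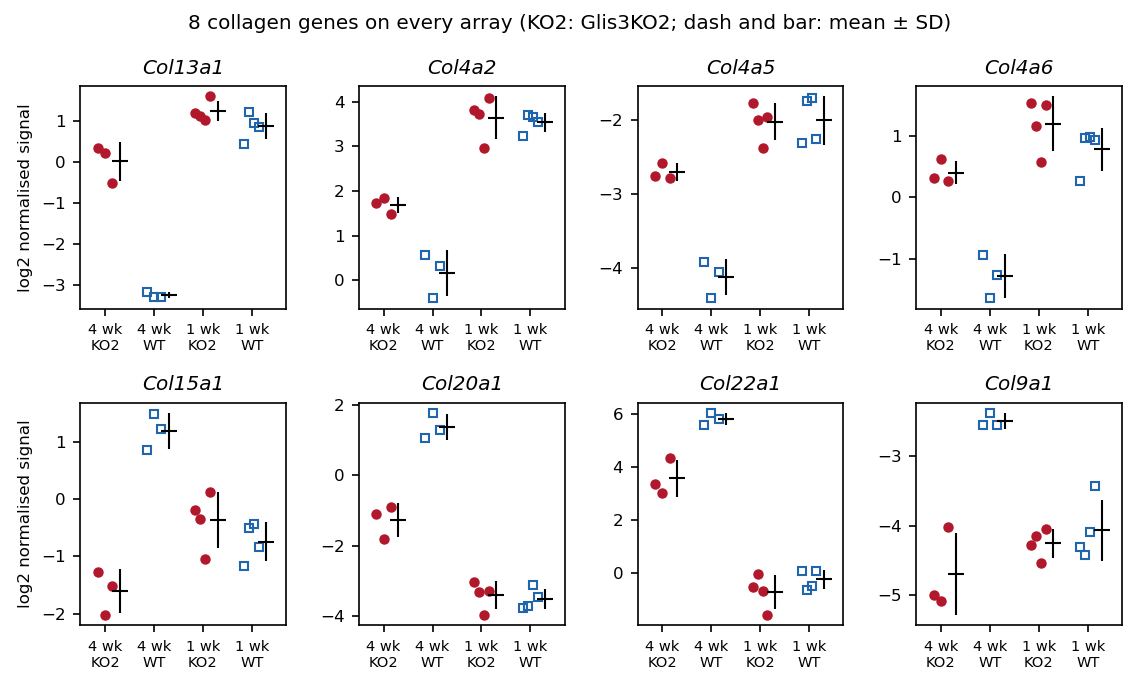
Log2 normalised signal of 8 collagens on every array (red circles Glis3KO2, blue squares WT), with the mean and SD of each group beside the points. In the upper row the 4-week WT arrays lie below all others, as for Col13a1 near -3.24, and in the lower row they lie above all others, as for Col22a1 near 5.81.

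Where a gene had more than 1 measured probe, the probes did not always give the same direction. At 4 weeks 13 other probes belonged to genes that changed, and 10 had the sign of the brightest. The exceptions were Col22a1 (0.17, SE 0.149), Col23a1 (1.14, SE 0.183) and Col11a2 (-0.26, SE 0.229), against -2.24, -1.23 and 1.09 for the brightest probes. For Col23a1 both probes passed, in opposite directions, 2505 bases apart. The genotype call of Col23a1 was lost when all probes of a gene were averaged (-0.048), and that of Col11a2 too (0.42). The interactions of Col11a2 (0.48), Col16a1 (-0.096), Col22a1 (-0.091) and Col23a1 (-0.28) did not pass on that mean either. Of the 13 other measured probes of collagens with an interaction, 8 had the sign of the brightest, and the rest belonged to these 4 genes. The second Col16a1 probe gave 1.08 (SE 0.351) where the brightest gave -1.27, with a level at background on all 3 WT arrays at 4 weeks.

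The ages showed the same for 2 genes in WT. The brightest Col15a1 probe rose by 1.92 between 1 and 4 weeks, while the second probe, 170 bases downstream, was at background on all 3 WT arrays at 4 weeks and at least 6.2-fold lower than at 1 week. The second Col22a1 probe, 70425 bases away, fell by 1.48 (SE 0.191) where the brightest rose by 6.05. At 1 week this second Col22a1 probe was the only other collagen probe to pass, with -1.41, -1.14, -1.88 and -2.20 in Glis3KO2 and 0.048, -0.56, -0.51 and 0.058 in WT (-1.42, SE 0.265, limma adjusted p over all probes = 0.0254). Its interaction was 1.59 (SE 0.344), where that of the brightest probe was -1.77. The sequences of the 2 brightest probes are given because the largest age and genotype differences of their genes rest on them alone.
Col15a1 brightest probe, chr4:47326045-47326104 on mm7, plus strand: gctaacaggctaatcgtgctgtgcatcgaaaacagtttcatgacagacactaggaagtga
Col22a1 brightest probe, chr15:71951550-71951609 on mm7, minus strand: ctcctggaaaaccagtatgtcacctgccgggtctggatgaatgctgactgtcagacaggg

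**Figure D5:**
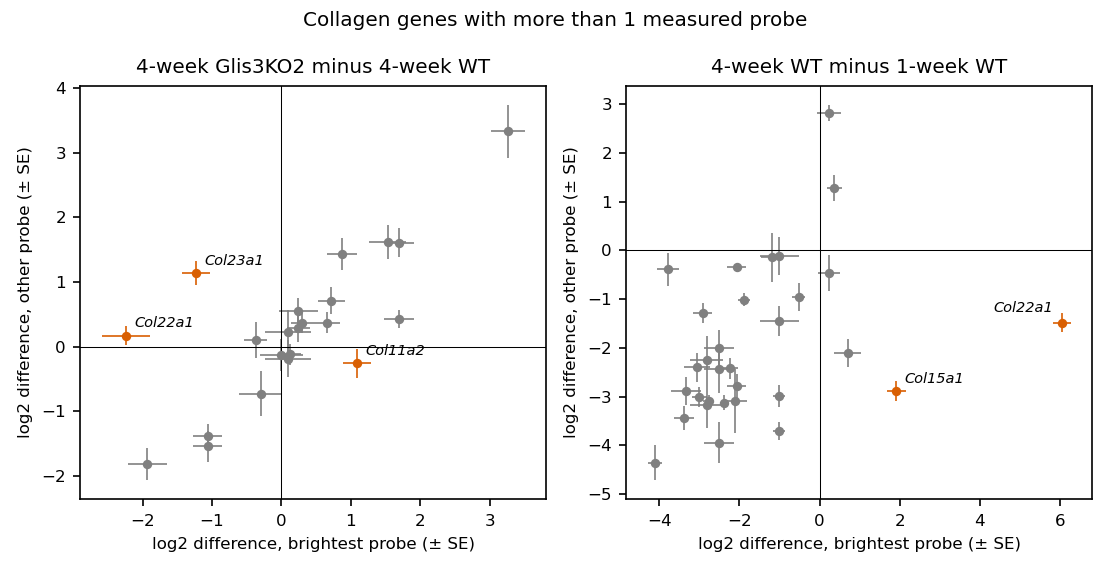
Log2 difference of the brightest probe (x axis) against that of every other measured probe of the same collagen (y axis), with standard errors, for 4-week Glis3KO2 minus WT (left) and 4-week minus 1-week WT (right). A probe at background in 1 group is drawn at its measured difference. Orange points, with their gene's name, are probes whose sign opposes a change past the threshold, such as Col22a1 at -2.24 and 0.17 on the left.

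A pair of Col2a1 probes shares 40 of its 60 bases, shown in capitals, and still differed between the ages. The brightest, spotted 10 times on each array, differed by 0.23 between 4-week and 1-week WT (SE 0.295), while the probe 20 bases upstream rose by 2.82 (SE 0.167). At 4 weeks the 2 probes gave nearly the same genotype difference, -1.93 and -1.82. At 1 week the brightest measured 0.99, 0.62, 0.15 and 0.93 in Glis3KO2 and -0.19, 0.64, 1.12 and 0.30 in WT, and the shifted probe -2.70, -2.78, -1.88 and -2.88 in Glis3KO2 and -1.83, -2.22, -2.10 and -2.50 in WT.
Col2a1 brightest probe, chr15:97979237-97979296 on mm7, minus strand: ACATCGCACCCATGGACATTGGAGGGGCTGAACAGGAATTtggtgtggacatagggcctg
Col2a1 shifted probe, chr15:97979257-97979316 on mm7, minus strand: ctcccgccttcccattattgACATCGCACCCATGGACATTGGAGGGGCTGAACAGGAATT

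Genes that build, cut and bind collagen were followed in 3 lists. Of 26 genes of collagen assembly and processing tested at 4 weeks, 18 (69.2%) were higher and 3 (11.5%) lower, with a median of 0.98, beside 35.1% higher, 34.1% lower and a median of 0.03 over all genes. The higher ones with the smallest p were the lysyl hydroxylase Plod2 (1.91, SE 0.179), the procollagen C-proteinase Bmp1 (2.13, SE 0.211) and the chaperone Fkbp10 (2.17, SE 0.219). The lower ones were the C-proteinase enhancer Pcolce2 (-1.58), the N-proteinase Adamts3 (-2.20) and Mia3 (-0.56), which helps load procollagen for secretion. Of 9 genes of collagen breakdown, which include proteases and their inhibitors, 8 (88.9%) were higher and 0 lower, led by the inhibitor Timp2 (1.90), the cathepsin Ctsk (1.69) and the membrane-bound collagenase Mmp14 (1.60). Mmp9 had 0.31 and did not pass.

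Of 10 collagen receptors 6 (60%) were higher at 4 weeks and 3 (30%) lower, the last share near that of all genes. The receptor tyrosine kinase Ddr1 was higher by 3.1 (SE 0.213), the integrin chain Itgb1 by 1.82 and the inhibitory receptor Lair1 by 1.22. The integrin chains Itga2 (-2.51) and Itga1 (-1.50), which pair with Itgb1 to bind collagen, and the platelet receptor Gp6 (-0.98) were lower. At 1 week 2 genes of assembly were higher, Pcolce (0.70) and Fkbp10 (0.71), and Pcolce2 lower (-1.79). Ddr1 (0.62) and Itga11 (0.76) were higher among the receptors and Mmp9 (-2.45) lower among the breakdown genes, with no other call in these lists at that age.

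Marker genes of testis cell types also changed between genotypes at 4 weeks, and their counts stand beside 35.1% of all genes higher and 34.1% lower. At 4 weeks 8 of 10 peritubular myoid markers were higher and 1 lower, with array means of 1.86 to 2.47 in Glis3KO2 and 1.11 to 1.27 in WT. Of 10 Sertoli markers 9 were higher and 0 lower (2.06 to 2.54 in Glis3KO2, 0.47 to 0.54 in WT), and of 10 fibroblast and stromal markers 8 were higher and 1 lower (0.16 to 0.56 in Glis3KO2, -1.18 to -0.63 in WT). All 9 markers of spermatocytes and spermatids were lower (2.32 to 3.34 in Glis3KO2, 5.20 to 5.52 in WT). None of these 4 lists had a gene at background in either group at 4 weeks. Of the other cell types, 2 of 8 Leydig markers were higher and 3 lower, 3 of 7 endothelial markers higher and 0 lower, 5 of 7 macrophage markers higher and 1 lower, and 1 of 7 spermatogonial markers higher and 4 lower. Their part in the collagen differences was not tested, and in bulk RNA fewer cells of a type and less RNA per cell cannot be told apart.

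Between the ages in WT the same lists moved too, beside 31.3% of all genes higher and 49.7% lower. The 9 spermatocyte and spermatid markers were all higher at 4 weeks than at 1 week, with a median of 9.49, and all 10 myoid, 9 of 10 Sertoli and 8 of 10 fibroblast and stromal markers were lower. At 1 week 0 of 10 myoid and 0 of 10 fibroblast and stromal markers passed between genotypes by limma, with 1 and 5 at an unadjusted p under 0.05. Of all 22678 genes tested 8188 had such a p, and 3.9% passed as higher and 6.14% as lower. Higher were 3 of 10 Sertoli, 4 of 8 Leydig, 2 of 7 macrophage and 1 of 7 endothelial markers, with 0 lower in these lists. Lower were 4 of 7 spermatogonial, 3 of 8 spermatocyte and spermatid and 1 of 5 cartilage markers tested, with 0 higher.

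Col4a3bp, the ceramide transfer gene that shares the name pattern, had 3 probes measured at 4 weeks that disagreed. The brightest was higher in Glis3KO2 by 1.10 (SE 0.180, limma adjusted p = 0.0019), and the others gave -0.40 and -1.46, the last of which passed as lower. No direction is given for this gene.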

How the data were processed

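Testis RNA was measured on 14 single-colour Agilent mouse arrays, and the scanner files were deposited with Feature Extraction 9.5 output, per the submitters' processing notes. The deposited intensity used was the processed signal, and the series' value table holds the same values. Probe annotation is on mm7, per the file headers. Each array's log2 intensity was reduced by its 75th percentile over non-control probes, non-uniform spots were dropped and spots of a probe averaged. Genotype at each age, age in WT and their interaction were tested by lmFit and eBayes of limma 3.58.1, run under R 4.3.3, with Benjamini-Hochberg adjustment over all genes. The number of arrays limits the precision. Collagens that changed are all named, the others are named with values or counted, and array values are given for the changed members of smallest p, those at background and examples of each class. The members, lists and tests were chosen with earlier results of these data known. The procedure was tested on simulated data, with 100 genes changed by a log2 of 1 and 100 by a log2 of 2. It recovered 48% and 82% of these in the 1-week comparison and 35% and 67% in the 4-week comparison. Between ages in WT it recovered 47% and 86%, and for the interaction 18% and 55%, so a gene that did not pass may still differ. Far fewer genes were changed there than passed at 4 weeks, so these shares need not hold for the data. Alternatives changed scaling, background correction, filters, probe choice, spread model, slide and replicate blocks, and left out each array.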

Additional observations from a re-analysis of the deposited data

Results flagged for a closer look

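In groups of 4 arrays, 10 of 82 groups (41 gene names in each genotype at 1 week) had an array far from the other 3, where chance flags about 1 in 20. All 10 lie low. On Glis3KO2 replicate 3 these were Col14a1 (0.037, nearest other array 1.49), Col1a2 (6.42, nearest 7.39), Col4a3 (-0.80, nearest -0.19), Col6a3 (2.50, nearest 3.61) and Col9a2 (0.55, nearest 1.5). On WT replicate 1 they were Col1a1 (5.04, nearest 6.30), Col1a2 (6.01, nearest 7.19), Col4a6 (0.26, nearest 0.93) and Col8a1 (-1.55, nearest -0.60). On WT replicate 4 it was Col4a3 (-0.34, nearest 0.16).

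The genotype difference at 4 weeks minus that at 1 week passed the test for 15 genes of the name pattern. It was positive for Col13a1 (2.89), Col24a1 (2.53), Col4a5 (1.44), Col4a2 (1.42), Col4a6 (1.28), Col11a2 (1.17) and Col4a3 (1.06). The brightest probe of Col4a3bp, no collagen, gave 0.88, but its probes disagree, and the call was lost with median scaling (0.54) and with the mean of all probes (0.24). The difference between ages was negative for Col15a1 (-3.16), Col20a1 (-2.77), Col2a1 (-2.14), Col9a1 (-2.01), Col23a1 (-1.80), Col22a1 (-1.77) and Col16a1 (-1.27).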

How the results depend on the processing

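Of the 4-week calls, 10 of 17 higher and 7 of 11 lower kept their side of the threshold in all 18 alternatives. The calls lost in at least 1 were those of Col11a1, Col11a2, Col1a2, Col4a4, Col5a2, Col7a1 and Col9a3 among the higher genes and Col19a1, Col23a1, Col27a1 and Col28a1 among the lower. Leaving out each array gave 12 to 17 higher and 10 to 11 lower, with a median of 0.18 to 0.40. The median was 0.16 with median scaling, 0.38 with quantile normalization, 0.30 with the filter on every array and 0.34 with the mean of all probes. At 1 week the number higher was 2 with median scaling, quantile normalization, the filter on every array and a trended robust fit, and 1 with normexp background and with 1 fit of all arrays. Leaving out arrays gave 0 to 2 lower and 0 higher there. Median scaling at 1 week turned the split over all genes from 885 higher and 1392 lower to 2886 and 1013, quantile normalization to 1442 and 1288, normexp background to 1017 and 954, the filter on every array to 1644 and 1521, and the trended fit to 1995 and 1877. Without a filter it was 207 and 751. On slide 1 alone or slide 2 alone no gene passed, so neither gives a test. With 1 array left out the counts ranged over 57 to 1188 higher and 220 to 2592 lower, and without both low arrays they were 76 and 412. The median between ages in WT was -1.81 with normexp background. That of the interaction was -0.28 with median scaling, 0.21 with quantile normalization, 0.29 with the filter on every array and -0.021 to 0.29 leaving out arrays, and 4 genes were lower with the mean of all probes. The mean of all probes also reversed Col15a1 between ages (-0.48) and Col4a3bp at 4 weeks (-0.25) and between ages (0.05). The Col16a1 interaction was lost in 13 of 23 alternatives, 10 of them leaving out an array (values -1.34 to -0.97), those of Col11a2, Col22a1 and Col23a1 with the mean of all probes, and those of Col4a3 and Col4a6 with median scaling. The calls between ages of Col7a1, Col10a1, Col14a1 and Col25a1 were lost without some arrays, with limma adjusted p up to 0.116. The causes were not tested beyond what each alternative changes. Replicate numbers did not pair the samples, with correlations of -0.169 to 0.159 at 1 week and -0.307 to 0.138 at 4 weeks, and not every array correlated best with its own number. With the replicate block 15 collagens were higher and 11 lower at 4 weeks and 0 and 0 at 1 week, where all genes gave 61 higher and 330 lower.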
